A study of Arabidopsis thaliana with 4 samples.

Results

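The COR (cold-regulated) and RD29 genes of Arabidopsis thaliana are stress genes that carry, or are read through, the dehydration-responsive element (DRE), the promoter motif that DREB transcription factors bind. The 10 genes described here were chosen by locus: RD29A (AT5G52310), RD29B (AT5G52300), COR15A (AT2G42540), COR15B (AT2G42530), KIN1 (AT5G15960), KIN2 (AT5G15970), COR47 (AT1G20440), ERD10 (AT1G20450), COR413IM1 (AT1G29395) and COR413-PM1 (AT2G15970). They are 10 of 29030 loci on the array and are read by 15 of its 43603 probes. For 9 of them the brightest probe passed the filter on dim signals, and COR15B did not pass. Each of those 9 was well above background in the line and wild type channels of all 4 arrays, so none was tested through 1 group alone.

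The plants were Arabidopsis in the Col-0 background, 21 days old and untreated. One line carried 35S:VuDREB2A (truncated) and another 35S:VuDREB2A (full length), and both were set against Col-0 wild type. VuDREB2A is a DREB2-type factor of cowpea, and 35S is a promoter active in most plant tissues. All plants, wild type included, were kept on vertical plates of agar with 1% sucrose, with 12 h of light a day at 25°C, and RNA came from whole plants. The labels do not say which part of the protein the truncated form lacks, how many plants made up a sample, or whether more than 1 line per construct was used.

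In plants, DREB1 factors (also called CBF) act on the DRE mainly in the cold, and DREB2 factors in drought and heat. Native DREB2A is kept inactive in unstressed Arabidopsis through a negative regulatory domain, and forms without that domain activate stress genes without stress. A second promoter motif, the ABA-responsive element (ABRE), is bound by the ABF factors and drives genes such as RD29B. The proteins made are mostly very hydrophilic: COR15A and COR15B protect chloroplast membranes during freezing, KIN1 and KIN2 are small cold-induced proteins, and COR47 and ERD10 are acidic dehydrins. COR413IM1 and COR413-PM1 are instead membrane-spanning proteins, of the chloroplast inner envelope and the plasma membrane. In the current gene table RD29A lies next to RD29B on chromosome 5, KIN1 next to KIN2 on chromosome 5, COR15A next to COR15B on chromosome 2, and COR47 next to ERD10 on chromosome 1.

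Each line was hybridised with wild type on 2 arrays with the dyes exchanged between replicates, so the number of arrays limits the precision. All 4 arrays lay on 1 slide and were scanned in 1 run. The share of probes well above background was 65.6% to 72.5% per channel, and 0 gene spots were saturated. No probe is named for the cowpea gene (0 found), so these arrays give no level of the transgene. Native DREB2A had log2 ratios of 0.13 ± 0.13 in the truncated line and 0.38 ± 0.21 in the full-length line over wild type (SD, n = 2 arrays each), and passed in neither (limma, adjusted p = 0.409 and 0.0535). Of the tissue markers, 7 of 7 shoot and 9 of 10 root genes were well above background. The floral genes AP1 and AP3 and the seed genes CRU3 and EM6 were above it in no channel. The third seed gene, CRA1, was above it in all channels, and the floral gene AG in 1 wild type channel only. The floral gene PI was above it in all channels and was higher in the truncated line (log2 ratio 0.86 ± 0.02; adjusted p = 0.00342).

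The first comparison asked how these DRE genes stood in unstressed plants that carry the truncated construct. In the truncated line 2 of the 9 genes tested were higher than in wild type and 2 were lower. RD29A was 1.43-fold and COR15A 1.34-fold the wild type level, whereas COR413IM1 was at 0.469 times and COR413-PM1 at 0.819 times. The other 5 genes did not pass the threshold (adjusted p of 0.05, Benjamini-Hochberg over 22438 features). The 4 genes are 44.4% of those tested, in a comparison in which 13.2% of all features passed, 7.09% as higher and 6.15% as lower. Since both lines were set against the same wild type, and the design text counts 2 wild type replicates, the lines may share wild type RNA, and the values for each are given side by side only.

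RD29A is the gene whose promoter is most often used to report DRE activity. On a normalized log2 intensity scale, its level was 8.83 and 8.82 in the truncated line and 8.27 and 8.34 in wild type on the same arrays, replicates 1 and 2 in that order. Both line values lay above all 4 wild type channels (highest 8.34), while 51.1% of all features had both line values outside them. The log2 ratio was 0.52 ± 0.06 (SD, n = 2; SE 0.07; adjusted p = 0.0183). Of all features, 1.94% had a higher ratio in this line. RD29A kept its direction under all 15 alternatives and passed in 13, with adjusted p from 4.28e-04 to 1. The exceptions were median centring and no filter on dim probes. These 15 are not all separate checks: leaving out an array of the other line repeats the fit of each line alone. The scanner's log ratios and the deposited table gave the same ratio as each other (0.69 for RD29A, beside 0.52 in the main fit), so they are not separate either. Both limits hold for every count out of 15 below. A second RD29A probe was well above background in only 1 of the 2 truncated channels and in 0 of 4 wild type channels, and gave 0.30 and -0.04 on the 2 arrays.

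COR15A had levels of 7.98 and 7.90 in the truncated line, against 7.49 and 7.55 in wild type. Its log2 ratio was 0.42 ± 0.09 (SD, n = 2; adjusted p = 0.0187), positive on both arrays (0.49 and 0.36). The 2 line values again lay outside all 4 wild type channels, as did those of 51.1% of all features. The call held in 12 of 15 alternatives (adjusted p from 2.62e-04 to 1). It ended with median centring (0.43), with no filter on dim probes (adjusted p = 0.0664) and without truncated replicate 1 (0.36, adjusted p = 0.106). Its neighbour COR15B did not pass the filter on dim signals: its probe was well above background in 1 of 2 truncated channels, 0 of 2 full-length channels and 1 of 4 wild type channels. The ratios read there were -0.03 and 0.15 in the truncated line and 0.07 and 0.00 in the full-length line. With no filter, over 34127 features, it did not pass in the truncated line, the full-length line or between the lines (limma, adjusted p = 0.802, 0.899 and 0.986).

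COR413IM1 moved furthest of the 9 genes tested in this line. Its level was 8.02 and 7.89 in the truncated line, against 9.01 and 9.08 in wild type on the same arrays. In the full-length line it was 9.27 and 9.09, against 9.09 and 9.17 in wild type. Only the truncated values of COR413IM1 stood clear of the wild type ones, as did those of 51.1% of all features. The log2 ratio was -1.09 ± 0.13 (SD, n = 2; SE 0.09; adjusted p = 0.00555), and 0.178% of all features had a lower one. The call held in 14 of 15 alternatives and ended with median centring (-1.10, adjusted p = 0.125). COR413IM2, the neighbouring gene for a second envelope protein of the family, had -0.24 ± 0.06 and did not pass (adjusted p = 0.111).

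COR413-PM1, the plasma membrane member of the family, was lower by less. It stood at 12.04 and 12.09 in the truncated line, against 12.40 and 12.30 in wild type. The ratios were -0.36 and -0.21, a mean of -0.29 ± 0.11 (SD, n = 2; adjusted p = 0.0488). This value lay close to the threshold: the call held in 6 of 15 alternatives, with adjusted p from 9.5e-04 to 1. It was lost without truncated replicate 1 (-0.21, adjusted p = 0.361) and without replicate 2 (-0.36, adjusted p = 0.0916).

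**Figure D1:**
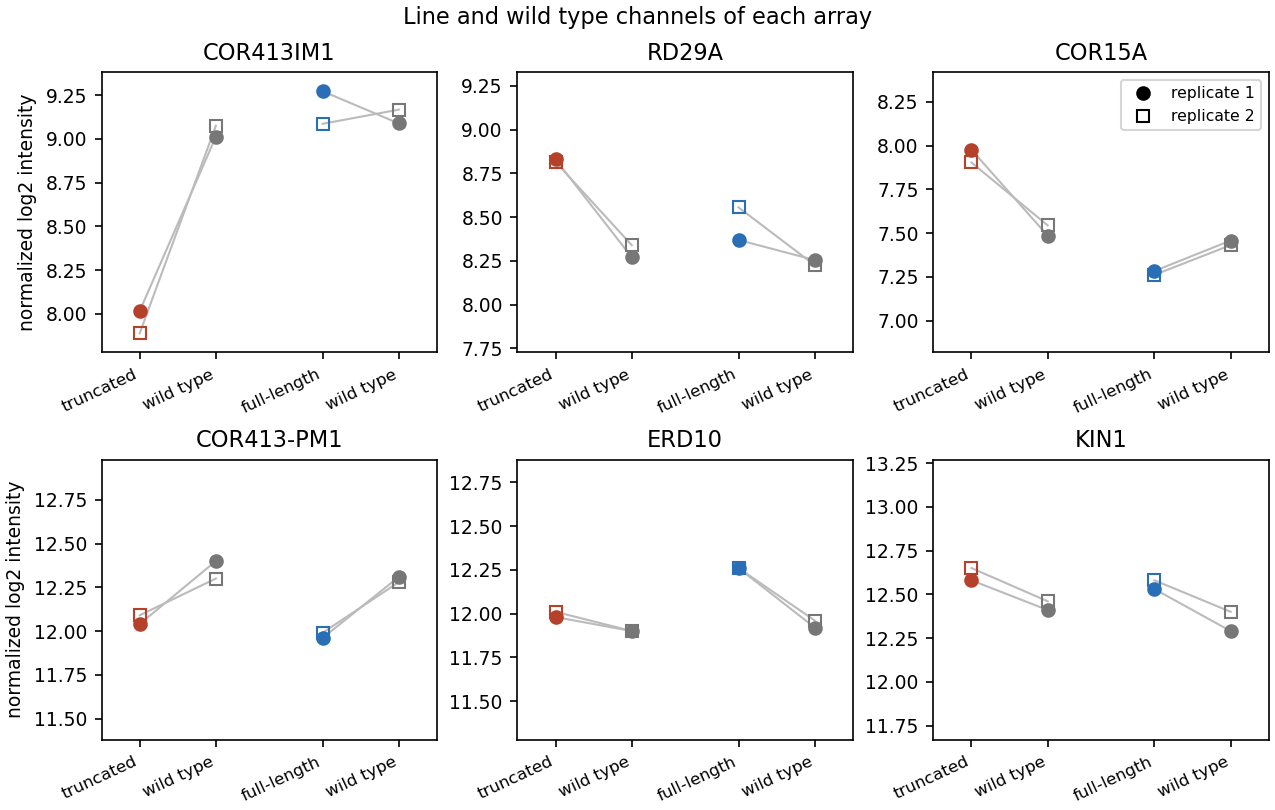
Normalized log2 intensity (y axis; each panel spans the same range) of 6 genes in the line channel (left of each pair) and the wild type channel of the same array, joined by a line; filled circles are replicate 1 and open squares replicate 2. COR413IM1 sits near 8 in the truncated line and near 9 in the other channels, while RD29A and COR15A lie above wild type in the truncated line.

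The genes that did not pass in the truncated line were RD29B, KIN1, KIN2, COR47 and ERD10. KIN1 and KIN2 had log2 ratios of 0.18 ± 0.02 and 0.29 ± 0.21 (SD, n = 2; adjusted p = 0.0994 and 0.173), positive on both arrays. RD29B, read mainly through the ABRE, had 0.06 and 0.22 (adjusted p = 0.255). By the brightest probe of each gene the dehydrins lay nearest to wild type, ERD10 at 0.10 ± 0.01 (adjusted p = 0.3) and COR47 at -0.11 ± 0.15 (adjusted p = 0.493). The mean of the COR47 probes was -0.19, further from wild type than RD29B at 0.14. Over the 9 genes the median ratio was 0.14, beside 0.00489 over all features. The line channels of 8 of the 9 lay outside all 4 wild type channels, 6 above and 2 below, but 51.1% of all features did so too.

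The same question was put to the line with the full-length construct. Here 2 of the 9 genes (22.2%) passed, ERD10 as higher and COR413-PM1 as lower, in a comparison in which 15.5% of all features passed (9.41% higher, 6.14% lower; with median centring 8 features were higher and 0 lower). ERD10 was 1.25-fold and COR413-PM1 0.801 times the wild type level. The share of members is near that background. The mean ratios of the 9 genes ran from -0.32 to 0.32.

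ERD10, a dehydrin known to bind and protect membranes and other proteins, stood at 12.26 on both arrays of the full-length line, against 11.92 and 11.96 in wild type. The log2 ratio was 0.32 ± 0.03 (SD, n = 2; adjusted p = 0.0233), and its second probe gave 0.30 ± 0.12 (adjusted p = 0.0567 with every probe as a feature). The call held in 10 of 15 alternatives (adjusted p from 4.51e-04 to 0.955). With median centring the ratio was 0.079 (adjusted p = 0.955). The call was also lost with no filter on dim probes (adjusted p = 0.0798), with outlier spots kept (0.0559), without full-length replicate 1 (0.166) and without replicate 2 (0.105). COR413-PM1 had levels of 11.96 and 11.99 in the full-length line, against 12.31 and 12.28 in wild type. Its ratio was -0.32 ± 0.04 (adjusted p = 0.0345), and the call held in 8 of 15 alternatives. It was lost without full-length replicate 1 (-0.29, adjusted p = 0.189) and without replicate 2 (-0.35, adjusted p = 0.114; range 5.47e-04 to 0.826). With median centring it was -0.57 (adjusted p = 0.826).

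RD29A and COR15A, the genes that rose in the truncated line, did not pass in the full-length line. RD29A had ratios of 0.11 and 0.33 (mean 0.22 ± 0.15, adjusted p = 0.109). COR15A had -0.17 on both arrays (SD 0.00298, adjusted p = 0.126), with line levels of 7.28 and 7.26 below the 7.46 and 7.43 of wild type. RD29B had 0.06 and -0.06, and COR413IM1 0.18 and -0.08, so both changed sign between the arrays. KIN1 (0.21 ± 0.04, adjusted p = 0.0688), KIN2 (0.31 ± 0.26, adjusted p = 0.143) and COR47 (0.29 ± 0.20, adjusted p = 0.105) were positive on both arrays.

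**Figure D2:**
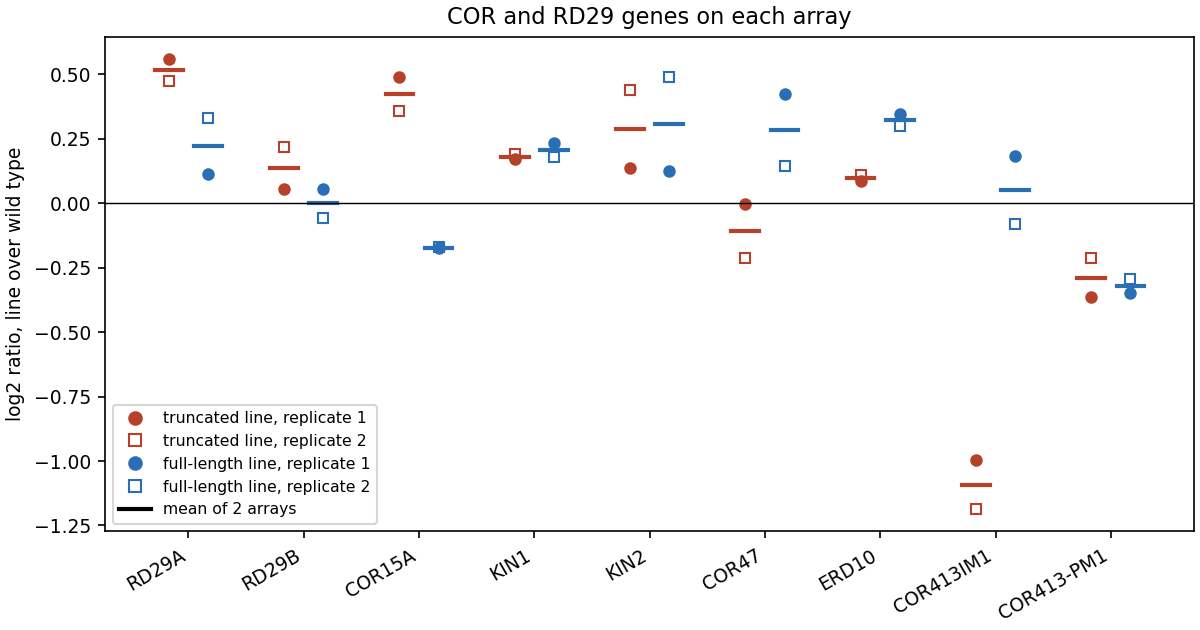
Log2 ratio of line over wild type (y axis) of the 9 genes tested, on each array; red is the truncated line, blue the full-length line, filled circles replicate 1, open squares replicate 2, and bars the mean of 2 arrays. COR413IM1 lies near -1 in the truncated line, and the ratios of the full-length line stay between -0.35 and 0.49.

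The median ratio of the 9 genes in the full-length line was 0.21 (0.00943 over all features), but it was -0.04 with median centring in place of loess, so no common direction can be given. The line channels of 7 of the 9 lay outside all 4 wild type channels, 5 above and 2 below, beside 50.9% of all features. Between the lowest and the highest of those 4 wild type channels the members ranged over 0.06 (ERD10) to 0.23 (RD29B) log2 units, beside a median of 0.15 over all features. Replicate number and dye are the same split of the arrays, so this range holds dye differences as well as differences between plants.

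The contrast of the truncated with the full-length line tested which members differ between the lines. Both COR413IM1 and COR15A did, in a comparison in which 3.12% of all features passed (0.972% higher, 2.15% lower). COR413IM1 was lower in the truncated line by a log2 difference of -1.14 (SE 0.13; 95% interval -1.47 to -0.82; adjusted p = 0.0224). COR15A was higher by 0.60 (SE 0.09; 0.37 to 0.82; adjusted p = 0.0401), from a positive ratio in the truncated line and a negative one in the full-length line. The COR15A difference passed in 6 of 14 alternatives and was lost without full-length replicate 1 (0.59), without full-length replicate 2 (0.60) and without truncated replicate 1 (0.53; adjusted p from 5.41e-04 to 1 over the 14). The COR15A difference was also lost with the deposited table and the scanner's log ratios (0.90 in both; limma, adjusted p = 0.0553). Other losses were with outlier spots kept (adjusted p = 0.0814), no filter on dim probes (adjusted p = 0.141) and median centring (difference 0.55). The COR413IM1 difference passed in 10 of 14 (4.36e-05 to 0.951). It was lost with the deposited table and the scanner's log ratios (-1.46 in both; limma, adjusted p = 0.0642). No filter on dim probes (adjusted p = 0.0858) and median centring (0.951) also lost it. Since the labels do not give the number of lines per construct, the effect of the truncation cannot be told apart from other differences between the lines.

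For 7 genes the difference between lines did not pass. COR47 (-0.39, interval -0.73 to -0.05, adjusted p = 0.193), ERD10 (-0.22, -0.42 to -0.02, adjusted p = 0.207) and RD29A (0.30, 0.03 to 0.56, adjusted p = 0.21) had single-gene intervals that left out 0, but did not pass once adjusted over all features. KIN1 differed by -0.03, and its interval of -0.23 to 0.18 bounds any difference to about that size. The interval of COR413-PM1 was -0.20 to 0.27, that of RD29B -0.11 to 0.39 and that of KIN2 -0.44 to 0.41, so a moderate difference in KIN2 was not detectable here.

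**Figure D3:**
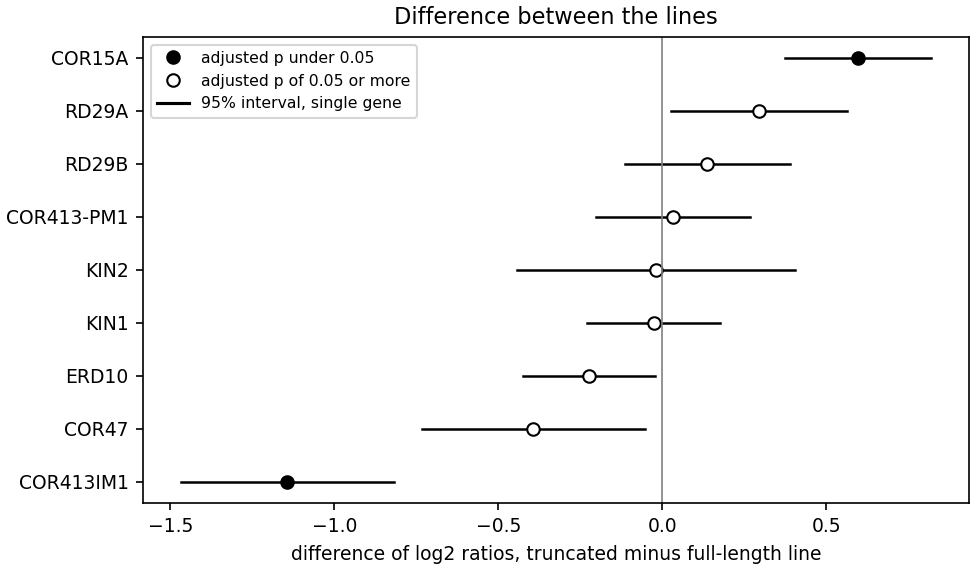
Difference of log2 ratios, truncated minus full-length line (x axis), of the 9 genes tested; dots are estimates, filled where the adjusted p is under 0.05, and lines are 95% intervals for a single gene. COR15A (0.60) and COR413IM1 (-1.14) are the 2 filled dots.

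Genes with more than 1 probe gave a check on these ratios. The probes of COR47 disagreed in the full-length line: the brightest gave 0.42 and 0.15, a second 0.05 and -0.17, and the third -0.15 and -0.30. None of the 3 passed when every probe was a feature (adjusted p = 0.101, 0.622 and 0.0888). In the truncated line all 3 were below 0, at -0.11, -0.21 and -0.26 on average. COR47 therefore has no settled direction in the full-length line, where the mean of its probes was -0.00067. ERD10's 2 probes agreed within the spread between arrays in both lines (0.10 and 0.10 in the truncated line, 0.32 and 0.30 in the full-length line).

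The second KIN1 probe, a dim one, had ratios of 0.43 and -0.37 in the truncated line and 0.53 and -0.38 in the full-length line, positive wherever the line was labelled with Cy3 and negative wherever it was labelled with Cy5. It was well above background only in Cy3, that is in 1 of 2 channels of each line and 2 of 4 wild type channels, and it was not tested. The bright KIN1 probe gave 0.17 and 0.19 in the truncated line and 0.23 and 0.18 in the full-length line. KIN2, whose product is closely related to that of KIN1, had larger ratios with Cy5-labelled line RNA (0.44 in the truncated and 0.49 in the full-length line) than with Cy3 (0.14 and 0.12). The sequences of KIN1 and KIN2 are alike, so their probes may share signal.

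**Figure D4:**
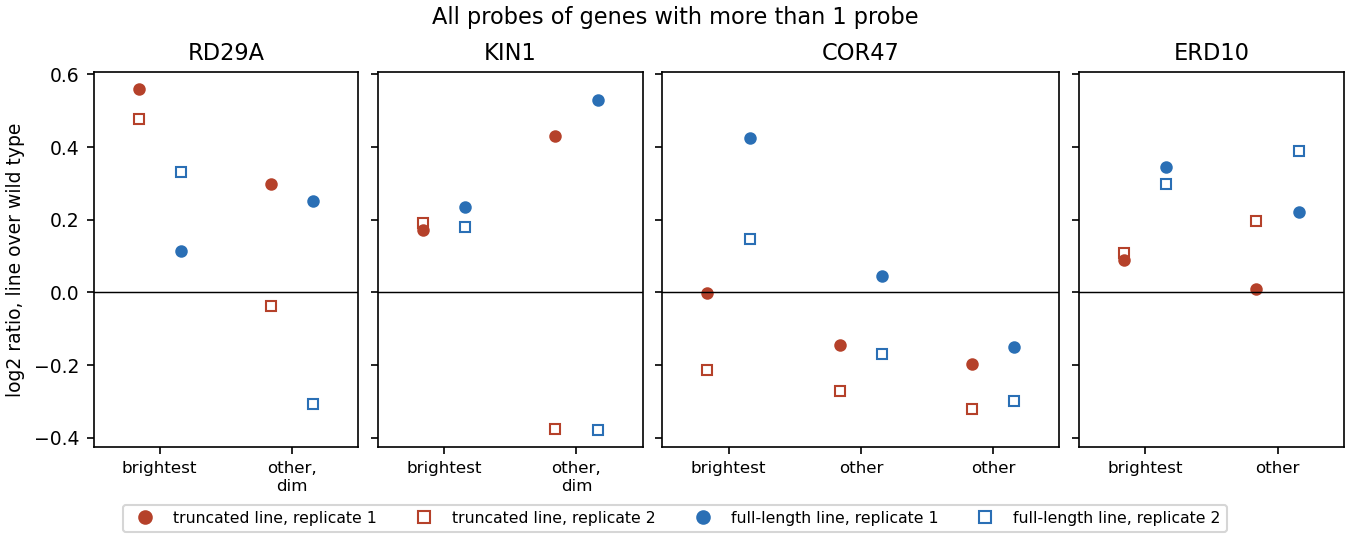
Log2 ratio of line over wild type (y axis) for every probe of RD29A, KIN1, COR47 and ERD10 on each array; the brightest probe is leftmost in each panel, "dim" marks probes that did not pass the filter, red is the truncated and blue the full-length line, filled circles replicate 1 and open squares replicate 2. The dim KIN1 probe is positive on both replicate 1 arrays and negative on both replicate 2 arrays.

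Other genes of the DRE and cold regulon were described from a list of 20, of which 17 were tested. In the truncated line 1 was higher and 3 lower (23.5%, beside 13.2% of all features), with a median ratio of -0.23. GolS1, which makes galactinol and responds to heat, had -0.84 ± 0.06 (adjusted p = 0.00385), the dehydrin LTI30 -0.64 ± 0.17 (adjusted p = 0.0127) and COR413-PM2 -0.25 ± 0.01 (adjusted p = 0.0459). GolS2, the drought-responsive galactinol synthase, was higher at 0.30 ± 0.06 (adjusted p = 0.0407). In the full-length line 2 were higher and 1 lower (17.6%, near the 15.5% of all features; median -0.08): LEA14 at 0.38 ± 0.03 (adjusted p = 0.0187), GolS3, the cold-responsive galactinol synthase, at 0.29 ± 0.01 (adjusted p = 0.0298), and the zinc finger repressor ZAT10 at -0.38 ± 0.10 (adjusted p = 0.028). Between the lines, GolS1 differed by -0.99 (SE 0.08; adjusted p = 0.0118) and the other 16 did not pass (5.88% called, beside 3.12% of all features).

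Of 18 factors that bind or control the DRE or ABRE, 11 were tested, and ABF3 was the only gene that passed in each line. That is 9.09% of the 11, below the 13.2% of all features in the truncated line and 15.5% in the full-length line. ABF3, an ABRE-binding factor, had 0.27 ± 0.07 in the truncated line (adjusted p = 0.0458) and 0.56 ± 0.03 in the full-length line (adjusted p = 0.0079), with no call between the lines (-0.29, adjusted p = 0.149). CBF2 had -0.10 ± 0.11 and 0.10 ± 0.06 (adjusted p = 0.358 and 0.364 in the truncated and full-length line). CBF1, CBF3, CBF4, DDF1, DREB2B, DREB2C and ABI5 did not pass the filter on dim signals.

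**Figure D5:**
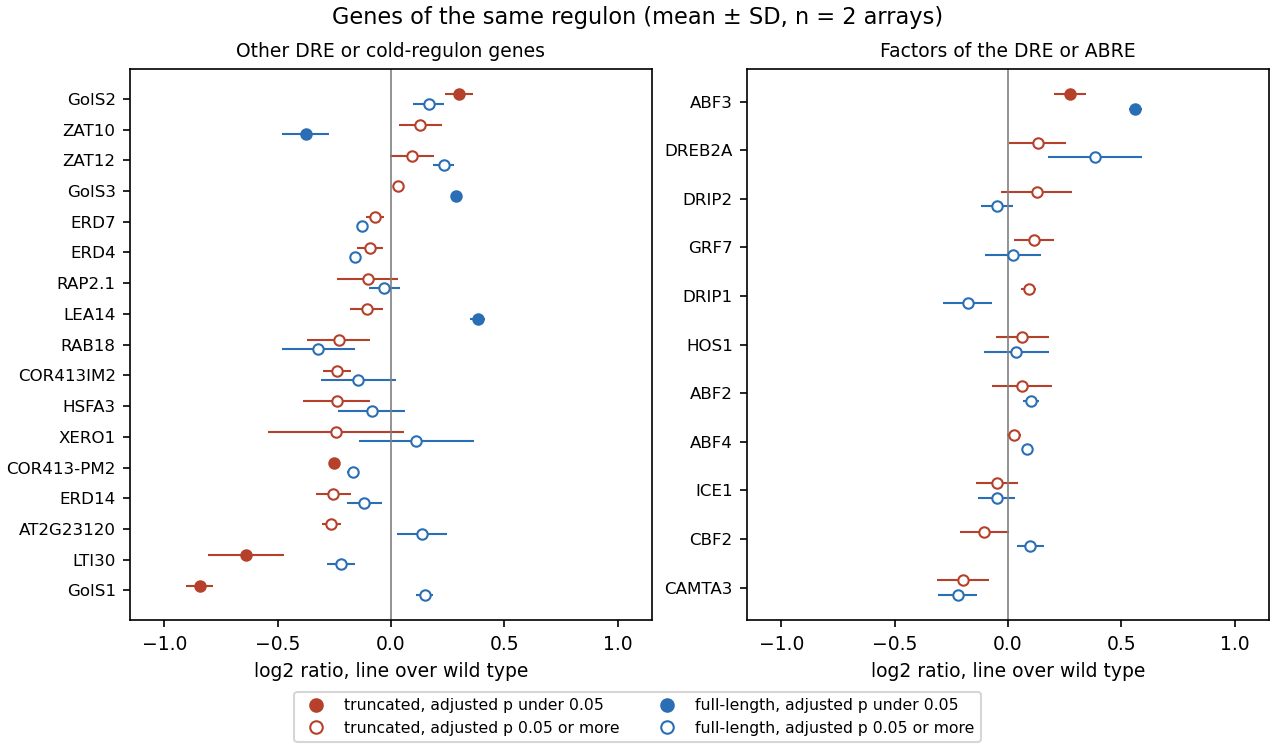
Log2 ratio of line over wild type (x axis; mean ± SD, n = 2 arrays) of 17 other DRE or cold-regulon genes (left) and 11 factors of the DRE or ABRE (right); red is the truncated and blue the full-length line, and filled dots have an adjusted p under 0.05. GolS1 (-0.84) and LTI30 (-0.64) lie furthest below wild type in the truncated line.

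Genes whose 4 array ratios lay nearest to those of COR413IM1 by Euclidean distance, among 8774 named genes, were SP1L2 (0.314 log2 units), GASA5 (0.33) and PAR1 (0.345). Their ratios were -1.05, -1.05 and -1.05 in the truncated line and 0.11, 0.21 and 0.09 in the full-length line. Nearest to COR15A were EMB2001 (0.119), WRKY18 (0.124) and JAZ6 (0.131), with 0.35, 0.42 and 0.38 in the truncated line and -0.21, -0.13 and -0.11 in the full-length line.

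Tissue markers were read beside these results. In the truncated line 1 of 9 root markers was lower (TIP4;1, -0.26), which is 11.1% where 13.2% of all features passed, and the median was -0.19. In the full-length line 4 of 9 (44.4%, beside 15.5% of all features) were lower (median -0.25), TIP2;3 (-0.76) and TIP4;1 (-0.66) among them. The summed linear level of the 10 root markers was 92585 to 94063 in the truncated line, 110294 to 110485 in the full-length line and 101473 to 107180 in wild type, and NRT2.1 was well above background in no channel. These sums were set mostly by PYK10, the brightest root marker (log2 level 16.1, with TIP2;2 next at 14.3). PYK10 had ratios of -0.19 in the truncated and 0.20 in the full-length line, and passed in neither. In the full-length line 7 of the 9 root markers tested had negative ratios, so the sum does not stand for the list. The summed level of the 7 shoot markers was 529357 to 720074 in the truncated line, 498228 to 690650 in the full-length line and 567991 to 736169 in wild type, ranges that overlap. The brightest shoot markers, RBCS1A and LHCB1.1, were negative on replicate 1 and positive on replicate 2 in both lines (RBCS1A -0.60 and 0.55 truncated, -0.71 and 0.36 full-length). The ranges therefore hold dye or replicate differences, and their overlap does not show like shoot content. Of the 7 shoot markers, 0 passed in the truncated line by limma (1 at an unadjusted p under 0.05). In the full-length line CAT3 was higher (0.29) and PSAH2 lower (-0.51), 28.6% of the 7 beside 15.5% of all features. Between the lines 0 of the 7 passed (3 at an unadjusted p under 0.05). The summed level of the floral markers was 562 to 584, 457 to 468 and 425 to 448 in the truncated line, the full-length line and wild type, and that of the seed markers 274 to 280, 280 to 284 and 262 to 290. The part of these values in the ratios of the COR and RD29 genes was not tested, and in whole-plant RNA fewer cells of a type and less RNA per cell cannot be told apart.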

How the data were processed

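Per the file headers, the authors scanned 4 2-colour Agilent arrays with Feature Extraction 10.7.3.1, and the deposited files give the intensity of each spot and its local background, and a log10 ratio of Cy5 over Cy3. The deposited value table holds, on a log2 scale, the line relative to wild type (correlation with the scanner ratios 0.977 to 0.999; column medians 0.0076, -0.0552, 0.0401 and -0.0699).

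Spots marked as outliers (20 to 50 gene spots per array) were left out. Median signals were corrected by normexp (offset 50) and normalized by loess within arrays, and ratios were turned to line over wild type by the dyes in the labels. Levels per channel were then scaled by Aquantile. The brightest probe stood for a locus. A feature was tested if well above background in both line channels of a line or in all 4 wild type channels. Both lines were fitted together with limma 3.58.1 in R 4.3.3 (2 residual and 3.18 prior degrees of freedom), with Benjamini-Hochberg adjustment over 22438 features. The offset makes ratios of dim genes smaller. P-values measure only the spread between arrays of the same line, pooled over both lines and drawn toward that of all features. Dye effects are included in it.

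The genes, lists, tests and alternatives were chosen with earlier results of these data known. All 10 genes are named. Of the regulon and factor lists, genes past the threshold are named (of the tissue markers, some are not reported here), and for a gene that differs between the lines the 3 nearest genes. Promoter and protein sequences were not analysed here. Gene names and neighbours come from the TAIR10.1 table, and no coordinates are given.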

Additional observations from a re-analysis of the deposited data

Results flagged for a closer look

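COR413IM1 and COR15A are listed here because their effects differed between the lines by the test of that difference. COR413IM1 had a difference of log2 ratios of -1.14 (truncated minus full-length; adjusted p = 0.0224), and it was negative on both arrays of the truncated line. COR15A had a difference of 0.60 (adjusted p = 0.0401), with both truncated arrays above 0 and both full-length arrays below 0. With 2 arrays per line, outlying arrays within a line were not tested for.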

How the results depend on the processing

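With limma, 4 of the 9 genes passed in the truncated line, 2 in the full-length line and 2 between the lines (unadjusted p under 0.05: 5, 7 and 5). In that order, median centring gave 0, 0 and 0 (unadjusted 2, 0 and 1), and no filter on dim probes, which tests 34127 features, gave 1, 0 and 0 (full-length and between lines unadjusted 5 and 3). Keeping outlier spots gave 0 in the full-length line (unadjusted 5) and 1 between lines. The scanner's log ratios and the deposited table each gave 1 in the full-length line and 0 between the lines (unadjusted 5 each). Fitting each line alone gave 4 in the full-length line. For a line over wild type, leaving out an array of the other line only repeated the fit of each line alone, so it tests nothing further. Calls lost without an array of the line itself are given with each gene above, the lone array being assumed to vary like the others.

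Over all features 2972, 3489 and 701 passed. Median centring gave 41, 8 and 0 (between lines unadjusted 426), and no filter 704, 1033 and 86. Keeping outlier spots gave 1024 in the full-length line and 369 between lines. Between lines, offset 16 gave 387, the deposited log2 values 173 and the scanner's log ratios 163. Leaving out 1 array gave 1325 to 3553, 1773 to 4308 and 713 to 801.

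The replicate block, the same split as dye orientation, gave 7, 7 and 5 of the 9 genes and 12171, 12751 and 8782 of all features. The genes it added were COR47, KIN1 and KIN2 in the truncated line (adjusted p = 0.0378, 0.00556 and 0.000821) and RD29A, COR15A, KIN1, KIN2 and COR47 in the full-length line (0.0119, 0.00915, 0.00298, 0.00055 and 0.000747). Between the lines it added RD29A, COR47 and ERD10 (0.0229, 0.00173 and 0.0138). Same-numbered arrays deviated together (correlation 0.775 over features), but the labels tie a number to no shared plants, and replicate number and dye cannot be told apart.

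Directions turned 21 times, all for ratios that had not passed. In the full-length line COR413IM1 was -0.053 with median centring, -0.013 with outlier spots kept and -0.081 to 0.18 leaving out 1 array (negative without replicate 1). There COR47 was -0.038 with median centring and -0.00067 as the mean of its probes, and KIN1 -0.049 with median centring. RD29B was 0.14 with median centring, 0.21 with the scanner's ratios and the deposited table, 0.0013 with offset 16 and -0.056 to 0.056 leaving out 1 array (positive without replicate 2). Between lines KIN1 was 0.13 with median centring and -0.053 to 0.0014 leaving out 1 array (positive without full-length replicate 1). KIN2 was 0.15 with median centring, 0.039 with the scanner's ratios and the deposited table, and -0.20 to 0.17 leaving out 1 array (positive without full-length replicate 2, and at 0.13 without truncated replicate 1). RD29B was -0.015 with the scanner's ratios and the deposited table, and COR413-PM1 -0.045 to 0.11 leaving out 1 array (negative without truncated replicate 2). The causes were not tested. The other single-gene values kept direction and call 318 times, lost the call 39 times and gained it 18 times. A slide or scan block was not run, since all arrays share both. COR15B and the second probes of RD29A and KIN1 are limited by signal near background. RD29B and COR15A were well above background but dim, and each was read by 1 probe. Their median signals were 92 to 148 for RD29B (local background 41 to 47) and 129 to 255 for COR15A.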
